A study of Mus musculus with 51 samples.

Results

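The HoxA genes between Hoxa2 and Hoxa9 were followed in mouse embryonic stem cells (mESCs) and through their differentiation towards neuromesodermal progenitors. The group held the 7 genes Hoxa2, Hoxa3, Hoxa4, Hoxa5, Hoxa6, Hoxa7 and Hoxa9, which were all the genes of this stretch among the 39 Hox genes of the log2 RPKM table, and they were taken in the order of their start position. All cells were male C57BL/6/Cast F1 mESCs. Control cells were Smchd1 fl/+ (wt), and the compared cells were Smchd1 del/+ (mat del), in which Zp3-Cre, active in the growing oocyte, had removed the maternal allele. Both genotypes therefore carried an untouched paternal allele, and mat del cells came from oocytes without Smchd1 and also held 1 deleted copy. The ground state was sampled in 2i with LIF from 3 lines per genotype. The time course was sampled at day 0 (in DME with LIF) and at days 1, 2, 2.5, 3 and 4 of differentiation, with 23 wt and 22 mat del libraries. By the study's methods cells were kept in medium with FGF after day 0. The Wnt activator CHIR99021 was added at day 2 and GDF11 at day 3. By the labels replicates 1 to 3 were line 1 and replicate 4 was line 2, while the study describes its replicates as technical replicates of a pair of lines, so p-values measured the spread between libraries that mostly shared a line, which may be technical. Each group held 4 libraries except wt day 1, mat del day 0 and mat del day 2.5, which held 3. By the labels the groups of mat del day 0 and day 2.5 had no replicate 4 and held line 1 only, so comparisons with them set 1 line against 2. The study's legends instead describe the 3 libraries of each of these groups as coming from 2 lines. Which is right was not tested, and the labels are followed here.

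HOX proteins are homeodomain transcription factors that give cells along the head-to-tail axis their regional identity. In the embryo the genes of a cluster are switched on in their order along the chromosome, with the low-numbered genes first and the high-numbered genes later, a property called collinearity. Neuromesodermal progenitors lie in the tail end of the embryo, make spinal cord and paraxial mesoderm, and switch Hox genes on under Wnt, FGF and GDF11 signals. Smchd1 is a chromatin protein that acts in gene silencing, and Hox clusters are among its known targets.

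In the files, which use the mouse build GRCm38, the 7 genes lay on the minus strand of chromosome 6. Hoxa2 was at chr6:52162417-52164831 and Hoxa9, at the other end, at chr6:52223100-52231089. The annotated span of Hoxa3, chr6:52169062-52213336, covered the whole of Hoxa4, Hoxa5 and Hoxa6, but its exons shared 0 bases with theirs. Promoter sequence was at hand for 6 of the 7 genes, all but Hoxa4 (RefSeq, GRCm38.p6). The 250 bases upstream of the RefSeq start are shown for Hoxa2, at the low-numbered end of the group, and for Hoxa7 and Hoxa9, at the other end. The windows of Hoxa7 and Hoxa9 lay inside the annotated spans of these genes. Capitals mark matches to TTTATG, a core bound by CDX factors, to CTTTGA, a core bound by TCF/LEF factors, or to TGATNNAT, a HOX and PBX site, on either strand, and none of these matches overlapped another.
Hoxa2, chr6:52164832-52165081, minus strand: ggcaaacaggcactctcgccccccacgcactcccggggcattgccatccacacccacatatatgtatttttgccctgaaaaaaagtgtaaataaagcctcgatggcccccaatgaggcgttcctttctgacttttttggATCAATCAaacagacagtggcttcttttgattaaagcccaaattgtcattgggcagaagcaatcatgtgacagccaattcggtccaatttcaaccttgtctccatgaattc
Hoxa7, chr6:52218574-52218823, minus strand: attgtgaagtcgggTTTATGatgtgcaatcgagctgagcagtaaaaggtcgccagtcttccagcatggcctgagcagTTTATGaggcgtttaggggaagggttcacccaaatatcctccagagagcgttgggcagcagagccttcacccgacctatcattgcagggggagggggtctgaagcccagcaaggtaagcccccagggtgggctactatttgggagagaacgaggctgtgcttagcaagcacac
Hoxa9, chr6:52227371-52227620, minus strand: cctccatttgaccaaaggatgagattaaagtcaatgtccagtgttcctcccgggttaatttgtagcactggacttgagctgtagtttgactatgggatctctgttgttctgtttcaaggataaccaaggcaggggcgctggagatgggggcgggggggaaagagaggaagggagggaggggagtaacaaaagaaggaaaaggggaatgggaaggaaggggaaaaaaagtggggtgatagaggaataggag
The Hoxa7 window held 2 matches to TTTATG, which began 236 and 173 bases upstream of its start. The Hoxa2 window held 1 match to TGATNNAT, 111 bases upstream. The windows of Hoxa3, Hoxa5, Hoxa6 and Hoxa9 held no match to any of the 3. Among 32851 mouse promoter windows of the same length, 10.8% held TTTATG, 13.8% held CTTTGA and 7.68% held TGATNNAT. These matches describe letters only, and no binding was measured.

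The values of the time course were log2 RPKM, that is reads scaled to the length of the transcript and to the depth of the library. All 1755 values of the 39 Hox genes in 45 libraries turned back into whole reads, to within 0.05 of a read, when multiplied by the exon length and 1 depth per library. A gene without reads was listed at the value of 0.9 reads, so its log2 RPKM depended on the depth alone. Implied depths ran from 346039 to 126805800 reads, and 10 libraries lay under 5000000 reads. The 7 genes had no reads in 90 of 154 values at days 0 to 2, and in 15 of 161 at days 2.5 to 4. Reads, and RPKM computed from them with no reads taken as 0, are therefore given beside log2 RPKM. The limma fits of log2 RPKM draw the variance of each gene towards a value shared by the 39 Hox genes. Where genes of a fit carry the same SE, it rests on that shared variance and not on their own spread.

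Of the 45 libraries, 5 stood apart. The Hox column of wt day 2 replicate 4 implied 346039 reads while the factor column of that library implied another depth, and 1 read was its total over the 7 genes. The library of mat del day 1 replicate 4 had no reads in any of 36 listed genes outside chromosomes 1 to 8, Ctnnb1 and Pou5f1 among them, but had reads in 29 of 37 genes on chromosomes 1 to 8. In wt day 2 replicate 3, mat del day 0 replicate 3 and mat del day 2.5 replicate 3, Ctnnb1, a broadly expressed gene of Wnt signalling and cell adhesion, lay at a log2 RPKM of 4.52 to 4.77, against 6.11 to 7.85 in the 40 libraries that did not stand apart. Results at days 0, 1, 2 and 2.5 are given with and without these 5.

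Raw counts were also listed for the time course, and their names did not match those of the log2 RPKM values. For 7 of the 45 libraries the counts of the 39 Hox genes equalled the reads recovered under the same name. For 35 they equalled those of a count column of another name, which belonged to another group for 34 libraries, to another day for 31 and to the other genotype for 16, and for 3 no column matched. Which of the names is right was not tested, and all time-course results below follow the names of the log2 RPKM columns. Under these names Tbra (Brachyury), a mesoderm gene that Wnt signalling turns on, was at a log2 RPKM of 0.92 or lower in every library up to day 2 and at 5.06 or higher in every library from day 2.5. Smchd1 was not among the genes with log2 RPKM values, so the genotype of the time-course libraries was not checked. No time-course library matched a count column of the 2i lines, and only the counts of the 2i lines were used in tests.

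**Figure D1:**
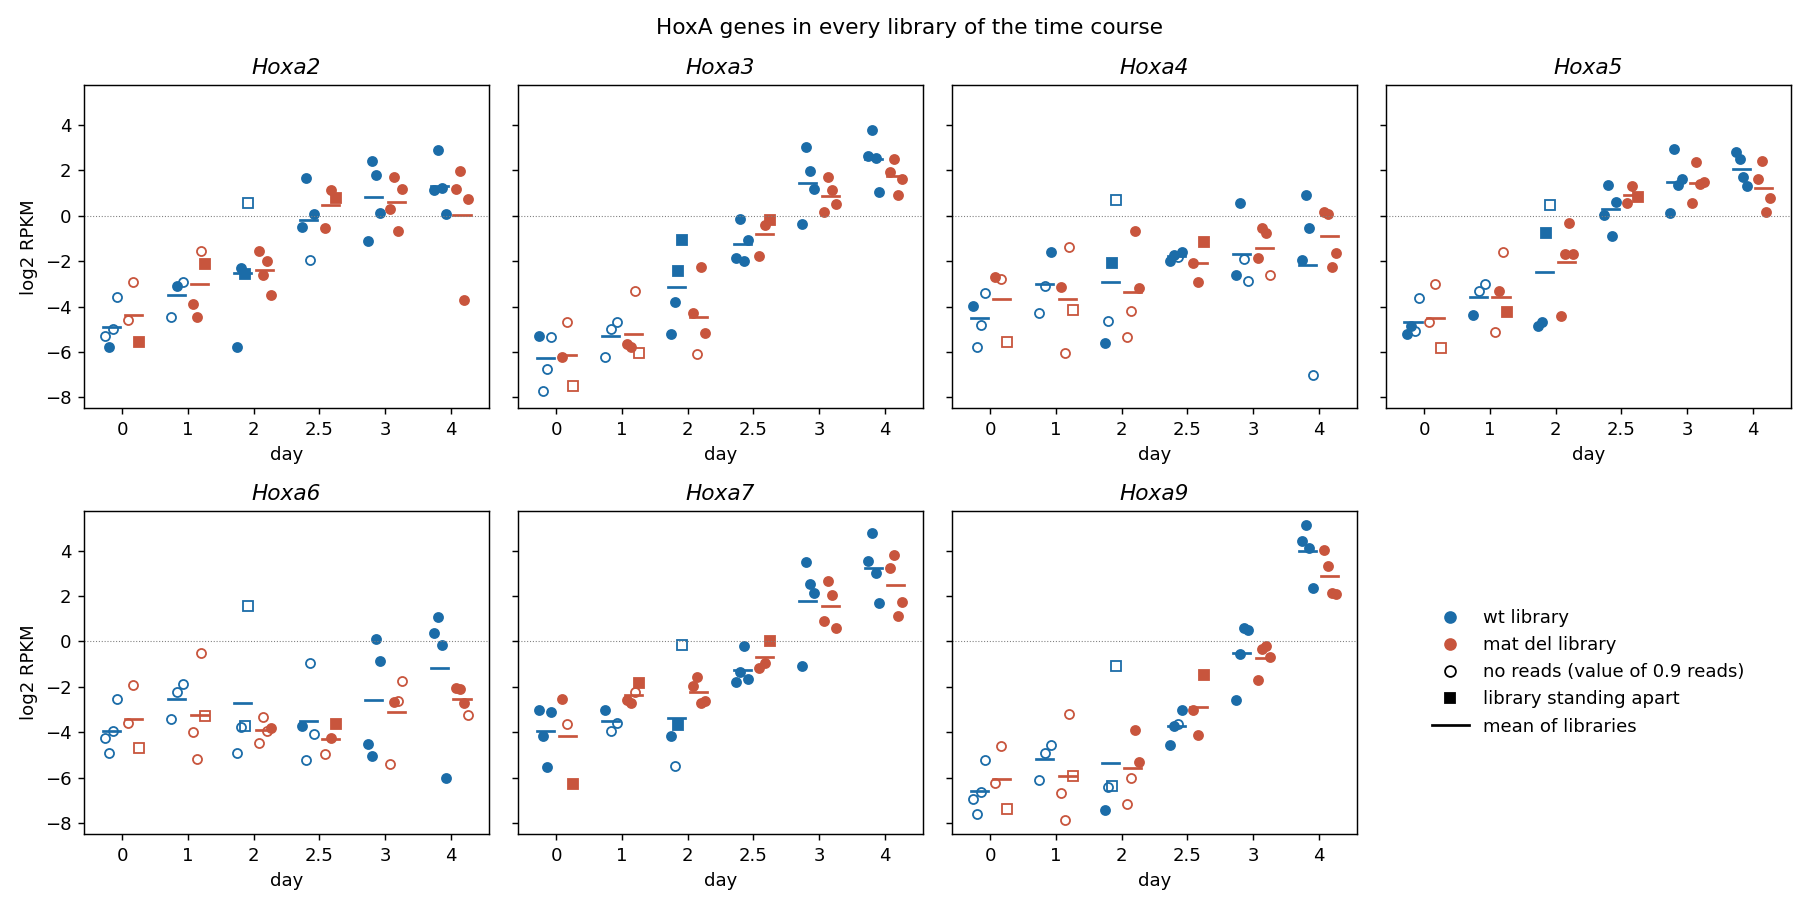
Log2 RPKM (vertical axis) of each of the 7 HoxA genes in all 45 libraries by day of differentiation (horizontal axis), wt in blue and mat del in red, with group means as lines. Open symbols are libraries without reads for that gene and squares are the 5 libraries that stand apart; Hoxa9 lies at 2.09 or above in all 8 libraries of day 4 and at 0.61 or below before.

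In 2i the 7 genes were close to silent. Smchd1 itself was at 117 ± 9.63 CPM (counts scaled to the library total) in wt and 74.7 ± 10.7 in mat del (SD, n = 3 lines each), a log2 difference of -0.63 ± 0.14 (SE) whose adjusted p was 0.992 in edgeR over 17696 genes, with an unadjusted p of 0.00231. Pou5f1, the core pluripotency factor, was at 898 ± 125 CPM in wt and 789 ± 89.8 in mat del. Hoxa7, an Antennapedia-class gene of the trunk, had 18, 78 and 5 counts in wt lines 1 to 3 and 75, 79 and 35 in mat del lines 1 to 3, out of 27526359 to 126716460 counts per line. Its level was 0.457 ± 0.308 CPM in wt and 0.776 ± 0.163 in mat del. Hoxa6 had 1, 2 and 1 counts in wt and 2, 12 and 0 in mat del. Hoxa9 had 14, 49 and 1 counts in wt and 28, 56 and 1 in mat del. In CPM the lines of both genotypes overlapped for all 7 genes. In bulk RNA a smaller share of cells with a transcript and less of it per cell cannot be told apart. The strand setting of the counting was not given, so reads of antisense genes of the cluster such as Hoxaas2 and Hoxaas3 cannot be told from those of their partners.

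No HoxA difference between the genotypes was called in 2i. Of the 6 genes that passed the filter on low counts, 0 passed an adjusted p of 0.05, and 0 of all 17696 genes did (0%). At an unadjusted p of 0.05 edgeR picked 0 of the 6 and 397 of all genes, and DESeq2 called 0 of 7, with 487 genes and 0 of the 7 at an unadjusted p of 0.05. The log2 differences, mat del minus wt, were 0.74 ± 0.77 (SE) for Hoxa2, 0.47 ± 0.50 for Hoxa3, 0.26 ± 0.61 for Hoxa4, 0.04 ± 0.76 for Hoxa5, 0.77 ± 0.55 for Hoxa7 and -0.05 ± 0.92 for Hoxa9. Among 13 listed non-coding genes and neighbours of the cluster, 9 were tested and none passed. The closest was Halr1, a long non-coding RNA gene, at 10.7 ± 2.92 CPM in wt and 17.1 ± 4.43 in mat del, with an unadjusted p of 0.0288 and an adjusted p of 0.992. Of 9 genes for HOX cofactors (the Pbx, Meis and Pknox homeodomain partners), none passed either in edgeR, and 1, Meis2, had an unadjusted p under 0.05 (0.0397).

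At days 0 and 1 single reads were seen for some genes and none for others. Hoxa6 and Hoxa9 had 0 reads in all 14 libraries of these days. In the deepest wt library of day 0, replicate 2, this allows at most 0.0172 RPKM of Hoxa9, taking 3 reads as the limit that covers counting error only. Hoxa7 had 7, 5, 1 and 2 reads in wt replicates 1 to 4 of day 0 and 6, 0 and 1 in mat del replicates 1 to 3. At day 1 it had 4, 0 and 0 reads in wt replicates 1, 2 and 4, and 8, 16, 0 and 8 in mat del replicates 1 to 4. On the log2 RPKM scale all 4 mat del libraries lay above the 3 wt libraries for Hoxa7 at day 1, which 2.6% of the Hox genes did, and without mat del replicate 4, which stands apart, 5.1% did. Replicate 3 did so with 0 reads, by its depth of 1470029 reads. limma called 0 of the 7 genes, and 0% of all 39, between genotypes at day 0 and again at day 1, with 0 of the 7 at an unadjusted p of 0.05 and 0 by edgeR on the recovered reads. Without the libraries that stand apart the counts were again 0 at both days.

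At day 2, 3 to 7 of the 7 genes had reads in the mat del libraries and 1 to 6 in the wt libraries. Hoxa7 had 5, 0, 3 and 0 reads in wt replicates 1 to 4 and 17, 10, 7 and 60 in mat del replicates 1 to 4. As RPKM from reads it was at 0.0336 ± 0.0397 in wt and 0.229 ± 0.0869 in mat del (SD, n = 4 each). Hoxa5, needed for patterning of the neck and upper thorax, had 2, 1, 15 and 0 reads in wt and 2, 6, 24 and 74 in mat del. Hoxa2, which patterns the hindbrain and its neural crest, had 1, 5, 4 and 0 reads in wt and 14, 3, 7 and 20 in mat del. By RPKM from reads every library of both genotypes lay under 1 for these 3 genes. limma on log2 RPKM called 0 of the 7 and 0% of all 39 between genotypes, 0 of the 7 at an unadjusted p of 0.05, and edgeR on recovered reads called 0.

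The 2 wt libraries that stand apart bore on this day. Without them Hoxa5 and Hoxa7 lay higher in all 4 mat del libraries than in both wt libraries that remained, as 5.1% of Hox genes did. The log2 differences were then 2.75 ± 1.30 (SE) for Hoxa5 and 2.60 ± 1.30 for Hoxa7. These were the only 2 of the 7 with an unadjusted p under 0.05, and limma's adjusted p was 0.92 for both. With all libraries the differences were 0.43 ± 1.53 and 1.16 ± 1.53.

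Between days 2 and 2.5, the interval after the Wnt activator CHIR99021 was added, Hoxa2, Hoxa3, Hoxa5 and Hoxa9 rose in mat del cells. Hoxa5 was at log2 RPKM values of -4.42, -1.69, -0.31 and -1.69 in replicates 1 to 4 of day 2. It was at 0.57, 1.31 and 0.83 in replicates 1 to 3 of day 2.5, on 89, 201 and 94 reads. The days did not overlap for Hoxa2, Hoxa3, Hoxa5 and Hoxa7, which made 4 of the 7 genes, against 61.5% of all Hox genes. For Hoxa9 they did overlap, with a highest value of -3.88 at day 2 and a lowest of -4.11 at day 2.5. Hoxa3, needed for the organs of the pharyngeal arches, went from -4.29, -6.10, -2.25 and -5.18 to -1.77, -0.41 and -0.20. The fitted steps were 2.86 ± 1.05 for Hoxa2 (adjusted p = 0.0121), 3.66 ± 1.05 for Hoxa3 (0.00204), 2.93 ± 1.05 for Hoxa5 (0.0111) and 2.71 ± 1.05 for Hoxa9 (0.0177), all by limma over the 39 genes. These 4 of 7 genes passed, against 64.1% of all Hox genes, so the share was no higher than that of all Hox genes. Hoxa7 stepped by 1.50 ± 1.05 and Hoxa4 by 1.28 ± 1.05, neither called, although all 3 libraries of day 2.5 lay above all 4 of day 2 for Hoxa7. limma did call Hoxa7 on log2(RPKM + 1), at 0.42 (adjusted p = 0.0308), and on log2(RPKM + 0.1), at 1.17 (0.0153). On log2(RPKM + 1) it did not call Hoxa9, at 0.19 (0.112). Without mat del day 2.5 replicate 3, which stands apart, Hoxa3 and Hoxa5 were called (adjusted p of 0.0275 and 0.0459), Hoxa2 was not (2.70 ± 1.25, 0.0632), nor was Hoxa9 (2.02 ± 1.25, 0.169), and the share of all Hox genes was 41%. The count was also 2 without mat del day 2 replicate 1 and without mat del day 2.5 replicate 2, against 53.8% and 51.3% of all Hox genes. In line 1 only, without mat del day 2 replicate 4, the same 4 genes were called.

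In wt cells the number of genes called over the same step was 0 with wt day 2 replicate 4 and 6 without it. With all libraries 0 of the 7 genes passed, against 2.56% of the 39, and 0 of the 7 had an unadjusted p under 0.05. edgeR on the recovered reads called 5 of the 7, Hoxa2, Hoxa3, Hoxa5, Hoxa7 and Hoxa9, against 72.2% of the genes it tested. Without wt day 2 replicate 4 alone limma called 6, against 59% of all Hox genes. Without both wt day 2 libraries that stand apart it also called 6, against 56.4% of all Hox genes. In that fit Hoxa5 rose by 5.05 ± 1.00 (adjusted p = 2.52e-05), Hoxa2 by 3.84 ± 1.00 (0.000726), Hoxa7 by 3.57 ± 1.00, Hoxa4 by 3.33 ± 1.00, Hoxa3 by 3.24 ± 1.00 and Hoxa9 by 3.19 ± 1.00. Hoxa2 had 1 and 5 reads in the day 2 libraries that remained, replicates 1 and 2, and 37, 211, 0 and 32 in replicates 1 to 4 of day 2.5. The library without reads there, replicate 3, had an implied depth of 1983613 reads. Cdx2, a caudal-type factor that acts upstream of Hox genes, was at a log2 RPKM of -1.31 ± 0.94 at day 2 and 5.14 ± 0.65 at day 2.5 in wt, and at -1.14 ± 1.35 (n = 4) and 4.89 ± 0.58 (n = 3) in mat del. Tbra was at -2.56 ± 1.09 and 6.60 ± 0.61 in wt and at -2.41 ± 1.76 and 6.26 ± 1.05 in mat del. Pou5f1 was at 8.75 ± 0.34 at day 0 and 4.58 ± 0.93 at day 4 in wt, and at 7.50 ± 2.38 (n = 3, 1 of them standing apart) and 5.34 ± 0.44 in mat del.

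From day 2.5 to day 3 the called genes were Hoxa3, Hoxa7 and Hoxa9. In wt, Hoxa7 went from -1.78, -1.34, -0.19 and -1.64 to -1.08, 3.52, 2.53 and 2.15, where replicate 1 of day 3, with 72 reads, stayed within the range of day 2.5. It rose by 3.01 ± 0.99 (adjusted p = 0.0113), Hoxa9 by 3.23 ± 0.99 (0.00894) and Hoxa3 by 2.71 ± 0.99 (0.0212) in limma. These were 3 of 7 genes, against 41% of all Hox genes. Leaving out wt day 2.5 replicate 1 or 4, or wt day 3 replicate 2 or 3, left the call of Hoxa9 alone, and leaving out wt day 3 replicate 4 left none. In mat del, Hoxa7 rose by 2.24 ± 0.70 and Hoxa9 by 2.14 ± 0.71, with adjusted p values of 0.0378 and 0.0382, and these were 2 of 7 genes against 35.9%. Leaving out mat del day 2.5 replicate 1 or 2, or mat del day 3 replicate 2 or 3, left none, leaving out day 3 replicate 4 left 1 and leaving out day 3 replicate 1 gave 4. Hoxa3 stepped by 1.66 ± 0.69 in mat del with an adjusted p of 0.0523, and passed at 0.0256 with the replicate block (1.78 ± 0.64). It also passed, at 0.0357, without mat del day 2.5 replicate 3, where 3 of the 7 and 53.8% of all Hox genes were called. Hoxa2 and Hoxa5 were not called in this interval. The step of Hoxa5 was 1.22 ± 0.99 in wt and 0.53 ± 0.68 in mat del, and that of Hoxa2 was 1.00 ± 0.99 and 0.17 ± 0.71.

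From day 3 to day 4, the interval after GDF11 was added, Hoxa9 alone of the 7 was called, in both genotypes. Hoxa9 acts in the posterior trunk. In wt it went from log2 RPKM values of -2.56, -0.56, 0.61 and 0.51 at day 3 to 4.42, 5.11, 4.13 and 2.33 at day 4. Reads were 50, 142, 18 and 33 at day 3 and 2008, 516, 1508 and 2077 at day 4. In mat del the values were -1.70, -0.33, -0.18 and -0.69 at day 3 and 4.02, 3.30, 2.13 and 2.09 at day 4. All day 4 libraries lay above all day 3 libraries in both genotypes, as for 30.8% of Hox genes in wt and 25.6% in mat del. The step was 4.50 ± 1.06 in wt (limma adjusted p = 0.000643) and 3.61 ± 0.69 in mat del (0.000881). Over the 18 settings tried in each genotype it lay between 3.21 and 5.39 in wt and between 2.38 and 3.89 in mat del, and was called in all of them. That was 1 of 7 genes against 30.8% of all Hox genes in wt and 33.3% in mat del. The next largest steps of the group were those of Hoxa7, at 1.47 ± 1.09 in wt and 0.93 ± 0.77 in mat del, Hoxa6, at 1.40 ± 1.25 and 0.59 ± 0.79, and Hoxa3, at 1.06 ± 1.06 and 0.87 ± 0.65, none of them called. Without wt day 4 replicate 4 Hoxa6 was also called in wt, at 3.01 with an adjusted p of 0.0191, and 38.5% of all Hox genes were.

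**Figure D2:**
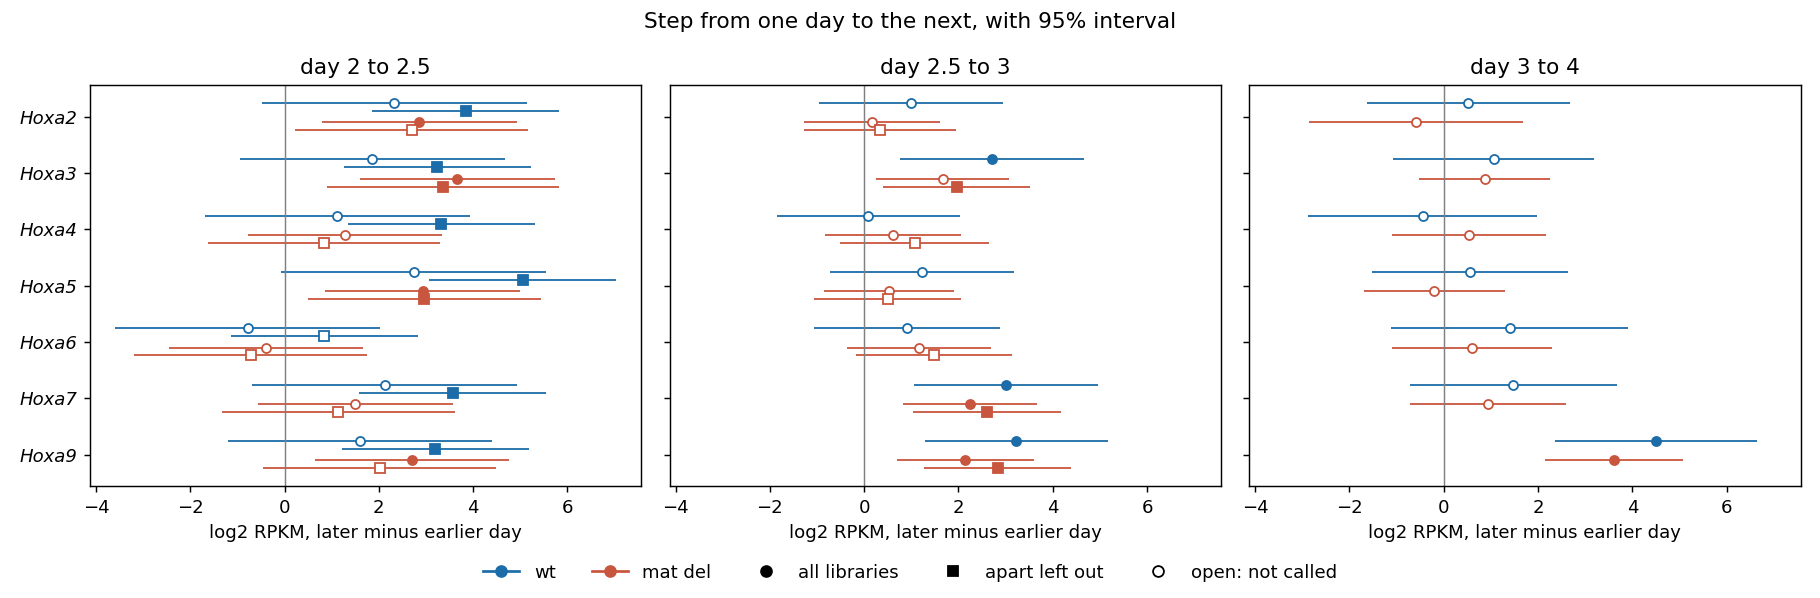
Fitted change in log2 RPKM from 1 sampled day to the next (horizontal axis, with 95% intervals) for each HoxA gene, wt in blue and mat del in red, in 1 panel for each step. Filled symbols passed an adjusted p of 0.05 and squares leave out the libraries that stand apart; from day 3 to day 4 the only filled symbols are those of Hoxa9, at 4.50 in wt and 3.61 in mat del.

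Hoxa4 and Hoxa6 kept low levels throughout. Both lie inside the Hoxa3 span, as does Hoxa5, which passed 1 RPKM at day 2.5. Hoxa6 had at most 19 reads in any library. At day 4 it had 19, 5, 12 and 1 reads in wt replicates 1 to 4 and 3, 2, 2 and 0 in mat del replicates 1 to 4, in depths of 2678804 to 73851252 reads. As RPKM from reads that was 1.08 ± 0.881 in wt and 0.158 ± 0.112 in mat del (SD, n = 4 each), and the 4 wt values ran from 0.0155 to 2.14. The lowest, replicate 4, lay among the mat del values and the other 3 above them. Hoxa4 had 7, 8, 17 and 0 reads in wt and 26, 16, 5 and 5 in mat del at day 4, or 0.707 ± 0.828 and 0.678 ± 0.479 RPKM. By the mean log2 RPKM of a group, Hoxa5 first passed 0 (1 RPKM) at day 2.5 in both genotypes, Hoxa3 and Hoxa7 at day 3 and Hoxa9 at day 4. Hoxa2 did so at day 3 in wt and at day 2.5 in mat del. The wt mean of Hoxa2 at day 2.5, -0.19, held replicate 3, listed at -1.97 on 0 reads. By mean RPKM from reads Hoxa2 passed 1 at day 2.5 in both genotypes, at 1.22 in wt and 1.52 in mat del. Hoxa4 and Hoxa6 did not pass it in either.

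From day 2.5 to day 4 the leading gene of the group within a library moved along the cluster. RPKM from reads summed over the 7 genes had a median of 3.25 in the wt libraries of day 2.5 and 44.3 in those of day 4, and 6.14 and 25.2 in mat del. Hoxa5 was the highest of the 7 in 2 of 4 wt and all 3 mat del libraries of day 2.5. Hoxa7 was the highest in 3 of 4 libraries of day 3 in each genotype, and Hoxa9 in all 4 wt and 3 of 4 mat del libraries of day 4. The exception was mat del day 4 replicate 2, in which Hoxa7 made up 35.2% of the sum and Hoxa9 24.7%. In the other 7 libraries of day 4 the share of Hoxa9 ran from 29.6% to 45.6%. In the 8 libraries of day 3 it ran from 1.96% to 11.1%. Before day 2.5, on few reads, Hoxa7 was the highest in all 4 wt libraries of day 0 and in 3 of 4 mat del libraries of day 1. Shares of genes within a library do not depend on its depth, but those built on few reads are noisy.

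The central comparison of the design, mat del against wt at the same day, found no called HoxA gene at day 2.5, 3 or 4. limma called 0 of the 7 and 0% of the 39 Hox genes at each of the 3 days, with 0 of the 7 at an unadjusted p of 0.05, and edgeR on recovered reads called 0. At day 2.5 Hoxa2 was at log2 RPKM values of -0.52, 1.65, -1.97 and 0.06 in wt and -0.54, 1.11 and 0.78 in mat del, so the ranges overlapped. The log2 differences, mat del minus wt, were 0.64 ± 0.82 for Hoxa2, 0.47 ± 0.82 for Hoxa3, -0.27 ± 0.82 for Hoxa4, 0.62 ± 0.82 for Hoxa5, -0.79 ± 0.82 for Hoxa6, 0.53 ± 0.82 for Hoxa7 and 0.86 ± 0.82 for Hoxa9, with adjusted p values of 0.694 to 0.822. The median over the 7 genes was 0.53 and that over all 39 was 0.54, and without mat del replicate 3, which stands apart, they were 0.17 and 0.18. Hoxa9 had 7, 16, 0 and 12 reads in wt and 22, 14 and 56 in mat del. The library with 56 reads was mat del replicate 3, and without it the difference of Hoxa9 was 0.17 ± 0.93. Without it Hoxa4, at -2.08 and -2.94 in mat del, also lay below all 4 wt libraries (-1.98 to -1.61, wt replicate 3 with 0 reads), as did 3 of the 39 Hox genes with 2 mat del libraries left, and its difference was -0.72 ± 0.93.

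At day 3 the differences were small against their error. They ran from -0.58 ± 0.95 for Hoxa3 to 0.26 ± 0.95 for Hoxa4, with Hoxa2 at -0.18, Hoxa5 at -0.07, Hoxa6 at -0.53, Hoxa7 at -0.24 and Hoxa9 at -0.23, each ± 0.95. The adjusted p was 0.985 for 6 of the genes and 0.991 for Hoxa5. Hoxa3 was at -0.37, 3.01, 1.98 and 1.17 in wt and 0.14, 1.70, 1.11 and 0.52 in mat del, and the mat del libraries lay inside the wt range. At its SE of 0.95 the 95% interval for Hoxa3 was -2.45 to 1.29, and so held differences in either direction. That SE was shared over genes, as Hoxa6 (SD of 2.59 in wt and 1.59 in mat del) and Hoxa9 (1.47 and 0.69) carried the same one.

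At day 4 the mean log2 RPKM was lower in mat del for all genes but Hoxa4, and none of the differences was called. Hoxa9 was at 4.00 ± 1.18 in wt and 2.89 ± 0.94 in mat del (SD, n = 4 each), a difference of -1.11 ± 0.84 (SE) with a 95% interval of -2.92 to 0.70 and an adjusted p of 0.649, which was also that of the other 6. The others were -1.29 ± 1.15 for Hoxa2, -0.77 ± 0.80 for Hoxa3, 1.24 ± 1.40 for Hoxa4, -0.83 ± 0.78 for Hoxa5, -1.34 ± 1.30 for Hoxa6 and -0.78 ± 0.90 for Hoxa7. Of the pluripotency factors, Pou5f1 (5.34 against 4.58), Klf4 (1.48 ± 1.06 against 0.58 ± 1.14), Zfp42, Esrrb and Tfcp2l1 had higher means in mat del at this day. Nanog (2.51 ± 1.33 against 2.75 ± 0.74) and Sox2 (1.55 ± 1.32 against 1.88 ± 0.69) had lower means. The part of these factors in the result was not tested. The median over the 7 genes was -0.83 and that over all 39 Hox genes -0.75, and the 2 medians were close. Hoxa7 was at 3.54, 4.78, 3.00 and 1.68 in wt and 3.23, 3.81, 1.10 and 1.74 in mat del. The wt library of line 2, replicate 4, was the lowest of its group for all 7 genes, and the lowest mat del library was replicate 3 for 5 of them and replicate 4 for Hoxa6 and Hoxa9. Without wt replicate 4 Hoxa6 alone was called, at -2.95 with an adjusted p of 0.0436, on a gene with at most 19 reads, and it was the 1 gene called of all 39 (2.56%).

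**Figure D3:**
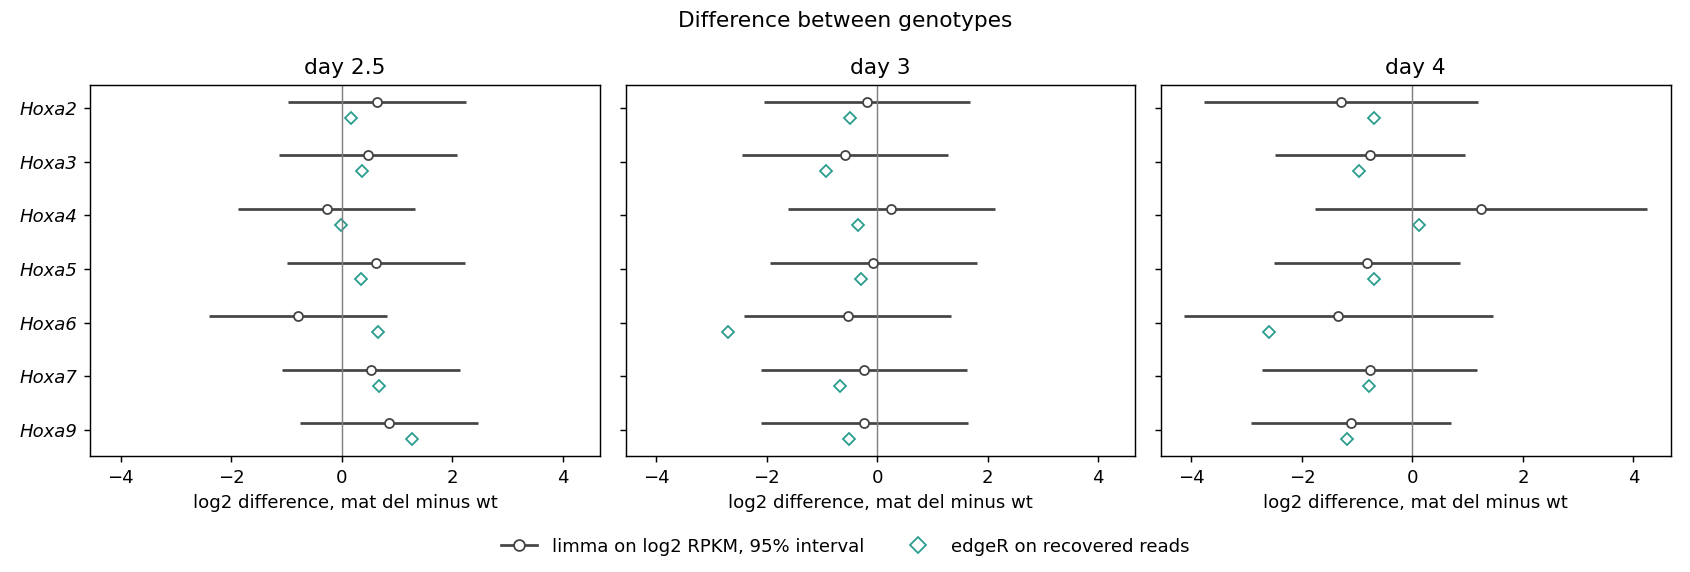
Log2 difference between genotypes, mat del minus wt (horizontal axis), for each HoxA gene at days 2.5, 3 and 4. Circles are limma on log2 RPKM with 95% intervals and diamonds are edgeR on recovered reads; every interval spans 0, and that of Hoxa9 at day 4 runs from -2.92 to 0.70.

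The steps were then compared between the genotypes, since a step called in one and not in the other is no test of a difference. limma called 0 of the 7 genes and 0% of the 39 for the difference of the steps in each of the 3 intervals, with 0 of the 7 at an unadjusted p of 0.05, and edgeR on recovered reads called 0. From day 2 to 2.5 the step of Hoxa3 was larger in mat del by 1.80 ± 1.82 (95% interval -1.78 to 5.39), and without the libraries that stand apart by 0.13 ± 1.60. In the latter fit the difference, mat del minus wt, was -2.09 ± 1.60 for Hoxa5 and -2.43 ± 1.60 for Hoxa7, with an adjusted p of 0.886 for both. From day 3 to 4 the step of Hoxa9 differed by -0.89 ± 1.18, with an interval of -3.34 to 1.57.

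The paralogs of the other clusters give the scale of these levels, since log2 RPKM is per length. At day 4 in wt the group 9 paralogs lay close together: Hoxa9 was at 4.00 ± 1.18, Hoxb9 at 4.69 ± 0.65, Hoxc9 at 3.08 ± 0.66 and Hoxd9 at 4.13 ± 0.69 (SD, n = 4). Each of the other 3 lay within the SD of Hoxa9. At day 2.5 Hoxa9, at -3.73 ± 0.64, and Hoxc9, at -3.72 ± 0.89, were both low, with Hoxd9 at -1.65 ± 0.50 and Hoxb9 at -0.07 ± 0.80. In group 6 Hoxa6 stood low at day 4, at -1.18 ± 3.26 against 2.54 ± 0.93 for Hoxb6 and 3.61 ± 1.16 for Hoxc6. In group 4 Hoxa4 was at -2.15 ± 3.46, against 1.87 ± 0.97 for Hoxb4, 2.82 ± 1.25 for Hoxc4 and 3.23 ± 1.29 for Hoxd4. Both means held wt replicate 4, at -6.01 on 1 read for Hoxa6 and at -7.03 on 0 reads for Hoxa4, and the medians were 0.10 and -1.23. In group 5 the order was another, with Hoxc5 at 3.05 ± 0.76, Hoxa5 at 2.06 ± 0.69 and Hoxb5 at -0.65 ± 1.07. In group 7 Hoxa7, at 3.25 ± 1.28, and Hoxb7, at 3.45 ± 0.91, lay within the SD of each other.

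The other clusters were counted in the same fits. Of 9 HoxB genes, 9 rose from day 2 to 2.5 in mat del, 3 from day 2.5 to 3 and 0 from day 3 to 4. In wt, 1 of the 9 rose from day 2 to 2.5 with all libraries and 9 without those that stand apart, 7 rose from day 2.5 to 3 and 0 from day 3 to 4. Of 5 HoxC and 5 HoxD genes, 5 and 5 rose from day 2 to 2.5 in mat del, and 2 and 1 without the library that stands apart. In wt 0 and 0 rose over that step with all libraries, and 2 and 3 without those that stand apart. From day 2.5 to 3, 3 and 3 rose in wt and 3 and 2 in mat del. From day 3 to 4, 2 HoxC genes rose in wt and 3 in mat del, and 3 and 4 HoxD genes did. Hoxa10, Hoxa11 and Hoxa13, the HoxA genes of the posterior end, rose in wt from day 3 to 4 and Hoxa10 and Hoxa11 in mat del. The profile most like the mean of the 7 genes over the 12 means of genotype and day, on a log2(RPKM + 1) scale, was that of Hoxc5 (Pearson's r = 0.992), followed by Hoxb4 (0.992), Hoxb6 (0.991), Hoxd1 (0.990) and Hoxc4 (0.989). These points share libraries and depth, and the correlations only describe them. Among the 7 themselves Hoxa2 and Hoxa5 were the most alike (r = 0.996), then Hoxa3 and Hoxa7 (0.995), and Hoxa5 and Hoxa6 the least (0.478).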

How the data were processed

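RNA-seq libraries of mESCs were prepared with Illumina TruSeq mRNA kits, stranded or not, and per the labels and methods the authors trimmed reads with Trim Galore 0.4.4 and aligned them with HISAT2 2.0.5 to GRCm38.p6. The strand setting of the counting was not given in the sources used here. The authors deposited raw read counts per gene (used for the 6 samples in 2i) and SeqMonk log2 RPKM values of 39 Hox genes and 34 factors (45 libraries), corrected by them for library size and transcript length.

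Log2 RPKM values were compared with limma 3.58.1 over the 39 Hox genes, with Benjamini-Hochberg adjusted p values and a threshold of 0.05. The 2i counts were compared with edgeR 4.0.16 (TMM, filterByExpr, quasi-likelihood test), where the standard error was taken from the F statistic, with DESeq2 1.42.0 as an alternative. Depths were solved from the log2 RPKM values, which gave whole reads for 100.0% of Hox values, and edgeR on these reads was an alternative. Scripts were tested on simulated data. The 7 genes, the lists of genes and the tests were chosen with earlier results of these data known. Named genes beside the 7 were their paralogs, the listed genes, Smchd1 and the 5 most similar profiles. Time-course counts were left out of the tests, since most carried another name than the log2 RPKM column whose reads they held. Same-numbered libraries of 1 genotype came from the same line, and the correlation of their deviations ran from -0.28 to 0.67 over 22 pairs of days. The fit with the replicate block is given where it changed a call.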

Additional observations from a re-analysis of the deposited data

Results flagged for a closer look

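Among 63 sets of 1 gene in 1 group of 4 libraries, 2 held a library far from the others, measured as the gap to its nearest neighbour over the range of the group. Such a gap is passed by chance in about 1 of 20 sets. Hoxa3 was at a log2 RPKM of -3.30 in mat del day 1 replicate 3, against -6.05 to -5.64 in the other 3 libraries. That library had 0 reads for Hoxa3 and an implied depth of 1470029 reads, so the value is the one listed for a gene without reads at that depth. Hoxa9 was at -1.10 in wt day 2 replicate 4, against -7.42 to -6.38 in the others, with 0 reads and an implied depth of 346039 reads.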

How the results depend on the processing

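Each count of called genes was recomputed under 295 alternatives for 16 counts, and 261 of them stayed on the same side and within 1.5 times. Of 1072 alternatives for single genes, 909 kept direction and call, 50 lost the call, 50 gained it and 63 turned direction. The cause was not tested for any of them. No HoxA gene was called between genotypes or for a difference of steps in any alternative except that of Hoxa6 at day 4 without wt replicate 4.

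The count of called genes changed as follows. For wt from day 2 to 2.5 (0), it was 5 with edgeR on reads, 6 at a depth of at least 5000000 reads, 6 in line 1 only, 1 with all 12 groups in the fit, and 6 and 6 with limma and edgeR without the libraries standing apart, an alternative chosen after seeing the data. For wt from day 2.5 to 3 (3) it was 0 on log2(RPKM + 1), 0 at that depth and 0 in line 1. For wt from day 3 to 4 (1) it was 2 in line 1. For mat del from day 2 to 2.5 (4) it was 2 and 2 without the libraries standing apart. For mat del from day 2.5 to 3 (2) it was 0 on log2(RPKM + 1), 1 at that depth, 1 in line 1, 0 with factors in the fit and 0 with all 12 groups. Leaving out 1 library at a time gave 0 to 1 for genotypes at day 4, 0 to 6, 0 to 3 and 1 to 2 for the wt steps in order, and 2 to 4 and 0 to 4 for the first and second mat del steps.

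Directions turned as follows. Between genotypes, Hoxa6 at day 2.5 was 0.65 with edgeR on reads, 0.051 at the depth minimum and 0.14 with edgeR without the libraries standing apart. At day 3 Hoxa4 was -0.015 on log2(RPKM + 1), -0.35 with edgeR and -0.040 at the depth minimum, Hoxa6 1.22 at that minimum, Hoxa7 0.64 there and 0.21 in line 1, and Hoxa9 0.82 and 0.10. At day 4 Hoxa4 was -0.15 in line 1. For wt from day 2 to 2.5, Hoxa4 was -0.079 and Hoxa9 -0.037 on log2(RPKM + 1), and Hoxa6 was 2.12 with edgeR, 0.83 in line 1, and 0.84 and 2.33 with limma and edgeR without the libraries standing apart. From day 2.5 to 3 in wt Hoxa6 was -0.46 at the depth minimum. From day 3 to 4 in wt Hoxa4 was 0.14 on log2(RPKM + 1), 0.18 on log2(RPKM + 0.1), 0.37 with edgeR and 0.79 in line 1. In mat del from day 2 to 2.5 Hoxa4 was -0.0035 with edgeR without the libraries standing apart and Hoxa6 0.31 with edgeR. From day 2.5 to 3 in mat del Hoxa2 was -0.015 at the depth minimum, in line 1 and with the replicate block, and Hoxa6 was -0.83 with edgeR and -0.35 with edgeR without the libraries standing apart. From day 3 to 4 in mat del Hoxa2 was 0.10 with edgeR.

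Leaving out 1 library at a time turned these log2 values, given as lowest to highest. Between genotypes they were -0.72 to 0.16 for Hoxa4 and -1.37 to 0.051 for Hoxa6 at day 2.5. At day 3 they were -0.82 to 0.35 for Hoxa2, -0.14 to 1.01 for Hoxa4, -0.53 to 0.41 for Hoxa5, -1.35 to 0.36 for Hoxa6, -1.19 to 0.34 for Hoxa7 and -0.92 to 0.14 for Hoxa9. At day 4 they were -0.39 to 2.26 for Hoxa4. For wt they were -1.63 to 0.64 for Hoxa6 from day 2 to 2.5, -0.67 to 0.48 for Hoxa4 from day 2.5 to 3, and -0.11 to 1.05 for Hoxa2 and -1.47 to 1.18 for Hoxa4 from day 3 to 4. For mat del they were -0.32 to 0.60 for Hoxa2 from day 2.5 to 3, and -1.23 to 0.66 for Hoxa2, -0.59 to 0.16 for Hoxa5 and -0.18 to 1.04 for Hoxa6 from day 3 to 4. Limiting the fit to genes with a mean log2 RPKM above 0 left none of the 7 genes at days 0, 1 and 2 or from day 2 to 2.5. Same-numbered libraries of the 2 genotypes showed no steady shared deviation (r from -0.56 to 0.57 over 21 pairs, 9 of them over 0.1). With the replicate block no gene was called between genotypes, and among the steps only Hoxa3 from day 2.5 to 3 in mat del changed its call. In wt day 4 replicate 4, at 73851252 reads and the lowest library of its group for all 7 genes, Hoxa4 and Hoxa6 had 0 and 1 reads. In wt day 3 replicate 2, at 37537034 reads, Hoxa4 had 89 reads, or 1.49 RPKM.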
